A study of Mus musculus with 250 samples.

Results

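The cells compared here are the ends of a ranking of mouse brain astrocytes by a score of 4 genes. At one end the secreted matrix protein gene Itih3 and the glutamate transporter gene Slc1a3 were high, and at the other end the water channel gene Aqp4 and the carbonic anhydrase gene Car2 were high. Each of 250 cells received a score, the sum of the standardized log2(CPM + 1) levels of Itih3 and Slc1a3 minus those of Aqp4 and Car2, where CPM is a gene's share of the counted reads of a cell, scaled to 1000000 reads. Levels were standardized within each of 2 plates. When the cells of a plate are ranked by score and cut into 3 equal parts, the top and the bottom part are the ends, 166 cells in all. The Itih3 end holds 83 cells, 54 on plate 2 and 29 on plate 3, and the Aqp4-Car2 end holds as many on each plate. The 84 cells between them (54 and 30) are given only as a reference. The cells were thus chosen by the measured levels of these 4 genes, which are described below with no comparison resting on them.

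All cells came from brains of C57BL/6 mice of about 3 months that carried SM22-Cre and Rosa26-stop-tdTomato. The labels give no treatment and no other genotype, so both ends share strain, alleles and age. In such mice Cre is made under the promoter of Tagln, a gene of smooth muscle, and removes a stop in front of a red fluorescent protein. Cells were sorted by fluorescence into wells and read with Smart-seq2, which copies whole polyadenylated transcripts and carries no molecular identifiers. No source used here gives the sort gate, and the labels name no animal. The column headers carry a pair of prefixes, called plates 2 and 3 here and treated as technical batches. Whether they also hold cells of different animals is not stated. Because the cells form 1 group of unknown animals, no test was made. Every spread is the SD between cells, and the plates, which hold different cells, show whether a difference recurred.

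Astrocytes take up glutamate, buffer potassium and water at contacts with vessels and synapses, and secrete proteins into the matrix. Itih3 encodes a heavy chain of the inter-alpha-trypsin inhibitor family, which binds hyaluronan, and Slc1a3 encodes the glutamate transporter GLAST. Aqp4 forms the water channel of astrocyte endfeet, and Car2 is a cytosolic enzyme that interconverts carbon dioxide and bicarbonate. Astrocytes of different brain regions differ in part of their genes, among them Agt and Sparc, and respond to Notch and hedgehog signals from neighbouring cells.

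The score had no break at the borders of the ends. On plate 2 it ran from -9.10 to 7.33, and the cells just inside and just outside the Itih3 end had 1.29 and 1.28. At the other border of plate 2 they had -1.24 and -1.21. Plate 3 ran from -6.19 to 7.93, with 1.01 and 0.92 at the upper border and -1.42 and -1.20 at the lower. Within 0.25 score units of a border lay 14 upper and 12 lower cells of plate 2, and 4 and 7 cells of plate 3. The ends are therefore used here as ranges of a score. The borders were set by rank, so close scores there cannot show whether the cells form classes, which was not tested.

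**Figure D1:**
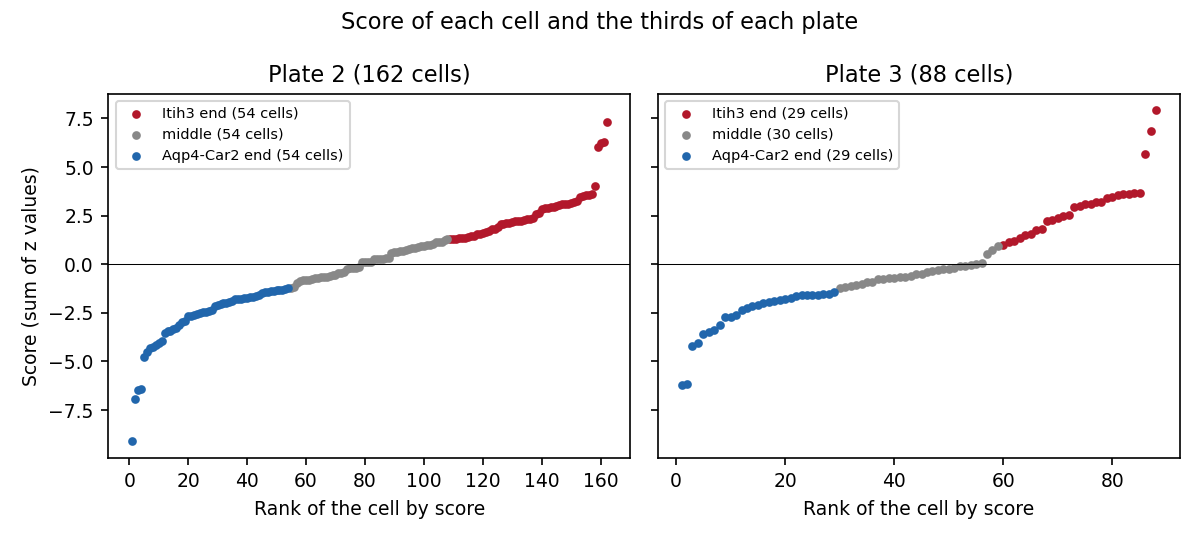
Score of each cell (sum of standardized log2(CPM + 1) levels, vertical axis) against its rank on plate 2 (162 cells) and plate 3 (88 cells), coloured by end or middle. The points form a continuous curve on both plates, with no gap where the ends meet the middle.

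The genes that made the score had these levels. Itih3 on plate 2 had lowest, median and highest values of 1185, 6524 and 27077 CPM at the Itih3 end and 0, 809 and 4530.4 CPM at the Aqp4-Car2 end. Itih3 on plate 3 had 1342, 7198 and 17810.3 CPM at the Itih3 end and 2.37, 1175 and 3713 CPM at the other end. Car2 on plate 2 had lowest, median and highest values of 0, 0 and 932 CPM at the Itih3 end and 19.2, 993 and 4206 CPM at the Aqp4-Car2 end. Car2 on plate 3 had 0, 0 and 600.2 CPM at the Itih3 end and 0, 921 and 2417 CPM at the other end. The median Car2 value at the Itih3 end was 0 on both plates, while Itih3 was detected, at 10 CPM or more, in 49 of 54 and 26 of 29 cells of the Aqp4-Car2 end. Median Slc1a3 was 6249 against 2411 CPM on plate 2 and 6535 against 2162 CPM on plate 3. Median Aqp4 was 1209 against 3334 and 1152 against 3158 CPM. Across cells of a plate, which share library batch and vary in depth, the Spearman rho of Itih3 was 0.435 and 0.515 with Slc1a3, -0.512 and -0.342 with Car2, and -0.334 and -0.401 with Aqp4 (plates 2 and 3, n = 162 and 88 cells). Aqp4 and Car2 had 0.299 and 0.351. Itih3 lies on chromosome 14 at 30908572 to 30923760 on the minus strand, Slc1a3 on chromosome 15 at 8634124 to 8710764 on the minus strand and Car2 on chromosome 3 at 14886273 to 14900770 on the plus strand (GRCm38, GENCODE M21).

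Both ends carried astrocyte transcripts. Of 14 astrocyte markers outside the score, each cell of the ends had 10 to 14, and 0 of the 12 that passed the filter described below differed by 1.5-fold on both plates. Of all genes that passed, 2.52% and 3.38% were past it toward the Itih3 and the Aqp4-Car2 end, so 0 of 12 is near the background. The summed level of the 14 markers was somewhat lower at the Itih3 end. On plate 2 its lowest, median and highest cells had 17762, 34836 and 49974 CPM against 28697, 41774 and 60154 CPM. On plate 3 the sums were 21868, 37383 and 52591 against 26552, 40396 and 53782 CPM. Depth also differed: the median cell of plate 2 had 266197 reads at the Itih3 end and 224008 at the other, and of plate 3 397016 and 373708. At 10 CPM, the median number of genes detected was 2260.5 against 2440.5 on plate 2 and 2600 against 2450 on plate 3, opposite in direction. The rho of the score with total reads was 0.183 and 0.120, with genes detected -0.192 and 0.0649, and with well row and column at most 0.0873. At least 3 markers of another cell type were found in 12 against 14 of 54 cells on plate 2 and in 2 against 5 of 29 on plate 3. The summed level of 7 smooth muscle markers had a median of 8.10 against 9.08 CPM on plate 2 and 13.5 against 15.3 CPM on plate 3. Mean Tagln was at most 2.11 CPM in any end of a plate. The part of depth and of other cell types in the gene differences was not tested, apart from the alternatives given with the genes.

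Of 16367 genes with reads, 1508 passed a filter on level: a mean of at least 20 CPM over all cells of each plate, detection in at least 10% of its cells, and no cell with 10% or more of the gene's sum. For each, the log2 ratio of mean CPM (plus 1) between the ends was taken on each plate, so that a positive value is a higher mean at the Itih3 end. Taken singly, plate 2 had 153 genes past 1.5-fold toward the Itih3 end and 236 toward the Aqp4-Car2 end, and plate 3 had 209 and 221. Some genes would be shared between such sets even if the plates were unrelated. At least 1.5-fold higher at the Itih3 end on both plates were 38 genes (2.52% of those that passed). On both plates 51 genes (3.38%) were at least 1.5-fold higher at the Aqp4-Car2 end. Another 39 genes (2.59%) passed 1.5-fold in opposite directions on the plates. Of these 128 genes, 69.5% thus had the same direction on both plates. Over all 1508 genes 55.6% had the same direction, and the ratios of the plates had a Pearson r of 0.140 and a Spearman rho of 0.135, across genes, which are not independent replicates. At 2-fold, 5 genes were higher at the Itih3 end, 8 at the Aqp4-Car2 end and 6 went opposite ways. For 20 of the 38 and 23 of the 51 genes the middle cells had a mean between those of the ends on both plates. On plates 2 and 3 taken singly this held for 28 and 27 of the 38 and for 39 and 28 of the 51. The genes were chosen for distant end means, which by itself favours a middle mean between them, and the share over all genes was not computed. In count, the genes with opposite directions (39) thus were about as many as those of the Itih3 end (38) and fewer than those of the Aqp4-Car2 end (51).

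**Figure D2:**
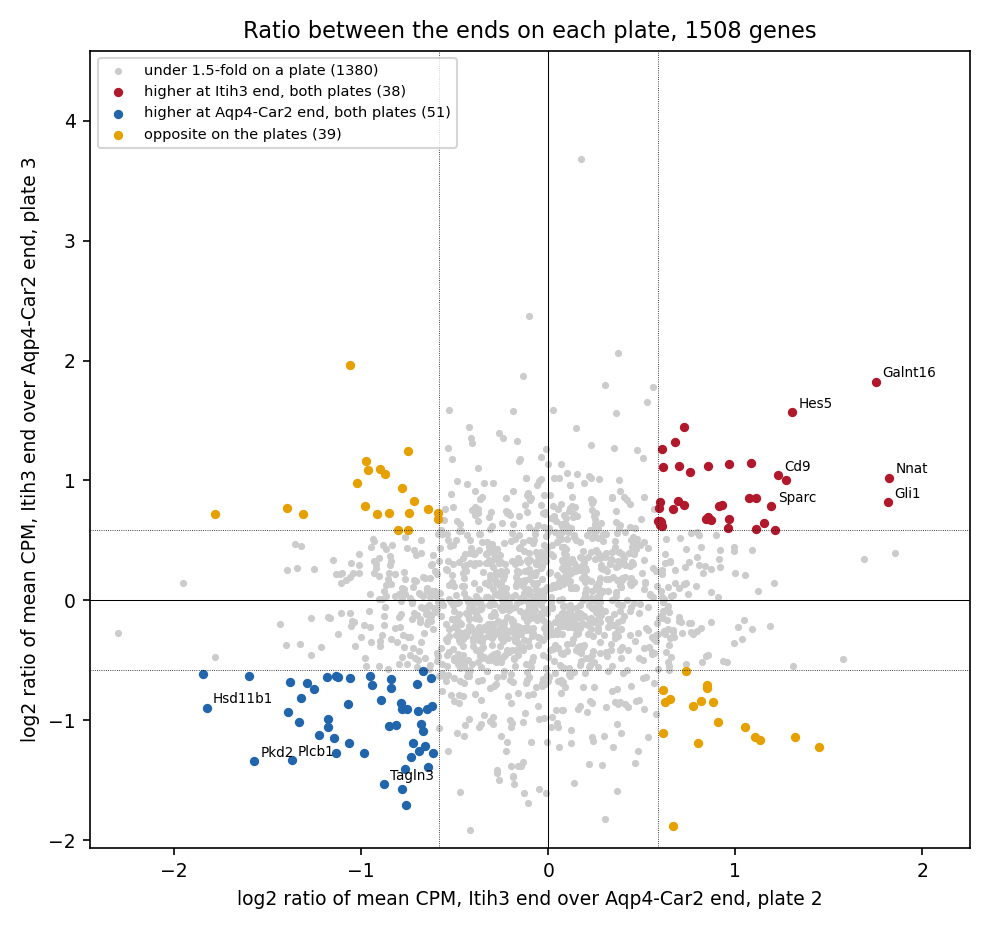
Each of 1508 genes by its log2 ratio of mean CPM (Itih3 end over Aqp4-Car2 end) on plate 2 (horizontal) and plate 3 (vertical), with dotted lines at 1.5-fold. The 38 and 51 genes past the lines in the same direction lie at upper right and lower left, and 39 genes lie in the opposite corners.

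Hes5, Gli1 and Wnt7b were among the 15 named genes of the Itih3 end. Hes5 encodes a transcriptional repressor that Notch signalling induces. Hes5 on plate 2 had lowest, median and highest values of 0, 1.45 and 1803 CPM at the Itih3 end and 0, 0 and 1017 CPM at the Aqp4-Car2 end. Hes5 on plate 3 had 0, 285 and 1378 CPM at the Itih3 end and 0, 0 and 1470.0 CPM at the other end. Cells without a Hes5 read occurred at both ends, the ranges overlapped on both plates, and the highest cell of plate 3 belonged to the Aqp4-Car2 end. Mean Hes5 was 224 ± 399.6 against 90.3 ± 201 CPM on plate 2 and 384 ± 413 against 128 ± 302 CPM on plate 3, log2 ratios of 1.30 and 1.57. It was detected in 22 of 54 Itih3-end cells of plate 2 (40.7%, 27.6 to 55.0%, exact binomial 95% interval for the sampling of cells only) against 16 (29.6%, 18.0 to 43.6%). On plate 3 it was detected in 24 of 29 cells (82.8%, 64.2 to 94.2%) against 12 (41.4%, 23.5 to 61.1%). Of 7 listed Notch genes 3 passed the filter, and Hes5 alone was past 1.5-fold on both plates, beside 2.52% of all genes toward the Itih3 end. The receptor gene Notch1 had log2 ratios of 0.44 on plate 2 and 0.18 on plate 3, and Notch2 had 0.24 on plate 2 and -1.17 on plate 3. In all 18 alternatives run for single genes, Hes5 passed the filter and 1.5-fold on both plates.

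Gli1, a transcription factor and transcriptional target of hedgehog signalling, was also higher at the Itih3 end. Gli1 on plate 2 had lowest, median and highest values of 0, 35.9 and 797 CPM at the Itih3 end and 0, 0 and 303 CPM at the Aqp4-Car2 end. Gli1 on plate 3 had 0, 205 and 806 CPM at the Itih3 end and 0, 0 and 1053 CPM at the other end. Both ends held cells without a read, and the highest plate 3 cell again lay at the Aqp4-Car2 end. Mean Gli1 was 153 ± 215 against 42.9 ± 89.7 CPM on plate 2 and 218 ± 228 against 123 ± 225 CPM on plate 3, log2 ratios of 1.82 and 0.82. Detection was in 28 and 13 of 54 cells on plate 2 and in 19 and 13 of 29 on plate 3. Of 7 hedgehog genes 3 passed the filter. The receptor gene Ptch1 had log2 ratios of -0.10 on plate 2 and 0.39 on plate 3, and Gas1, a coreceptor, had 0.65 on plate 2 and -0.82 on plate 3, opposite directions past 1.5-fold. The Wnt ligand gene Wnt7b had 0.91 on plate 2 and 0.79 on plate 3, with means of 195 ± 305 against 103 ± 199 and 299 ± 328 against 173 ± 285 CPM. It was detected in 22 and 22 of 54 cells on plate 2 and in 23 and 14 of 29 on plate 3, so on plate 2 the same number of cells held it at both ends. Gli1 passed the filter and 1.5-fold on both plates in 16 and Wnt7b in 12 of the 18 alternatives.

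The start regions of Hes5 and of named genes of both ends are shown because Hes5 is known as a direct target of RBPJ, the DNA-binding factor of Notch signalling. The windows run from 250 bases before to 50 bases after the start and come from RefSeq (GRCm38.p6). Hes5 (chr4:154960673-154960972, plus strand), Cd9 (chr6:125494711-125495010, minus strand) and Plcb1 (chr2:134785914-134786213, plus strand) are printed, with capitals at each TGGGAA, the core that RBPJ binds, or its reverse complement TTCCCA.
Hes5: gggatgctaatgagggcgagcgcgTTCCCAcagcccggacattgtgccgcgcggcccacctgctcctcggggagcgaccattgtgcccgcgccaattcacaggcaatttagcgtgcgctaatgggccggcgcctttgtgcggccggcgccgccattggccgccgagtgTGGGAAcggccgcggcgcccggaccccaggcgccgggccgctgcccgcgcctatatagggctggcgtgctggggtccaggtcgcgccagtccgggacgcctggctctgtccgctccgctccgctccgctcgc
Cd9: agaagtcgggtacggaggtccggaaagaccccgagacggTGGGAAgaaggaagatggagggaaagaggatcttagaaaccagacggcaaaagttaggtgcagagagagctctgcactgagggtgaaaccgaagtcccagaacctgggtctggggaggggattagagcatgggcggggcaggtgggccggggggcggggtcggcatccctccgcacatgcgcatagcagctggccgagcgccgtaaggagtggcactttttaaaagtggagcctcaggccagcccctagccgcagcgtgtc
Plcb1: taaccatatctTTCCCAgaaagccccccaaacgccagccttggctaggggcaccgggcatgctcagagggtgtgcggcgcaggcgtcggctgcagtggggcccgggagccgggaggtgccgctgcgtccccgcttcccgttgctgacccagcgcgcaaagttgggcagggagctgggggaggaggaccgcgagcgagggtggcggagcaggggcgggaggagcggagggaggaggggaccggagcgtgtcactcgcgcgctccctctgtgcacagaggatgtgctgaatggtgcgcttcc
The Hes5 window has 2 matches, 226 and 82 bases before the start, and Cd9 and Plcb1 have 1 each, at 211 and 239 bases. The motif, searched on both strands and chosen after the values had been seen, occurs in 25.6% of 32851 windows of this length. Of 11 named genes with a window at the Itih3 end, 4 had it (Cd9, Folh1, Galnt16 and Hes5), and of 11 at the Aqp4-Car2 end 2 had it (Dnm1l and Plcb1). These genes hold 14 and 13 windows, so the counts are per gene while the 25.6% is per window. The GLI motif TGGGTGGTC, in 0.253% of all windows, was in none of these genes' windows. A match describes letters in these windows and shows no binding.

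Galnt16, which encodes an enzyme that starts O-linked glycosylation, had the largest ratio by the smaller of its plate values. Galnt16 on plate 2 had lowest, median and highest values of 0, 61.9 and 1912 CPM at the Itih3 end and 0, 0 and 1185 CPM at the Aqp4-Car2 end. Galnt16 on plate 3 had 0, 242 and 1223 CPM at the Itih3 end and 0, 0 and 870.2 CPM at the other end. The median cell of the Aqp4-Car2 end had no read on either plate, although single cells there reached the range of the Itih3 end. Mean Galnt16 was 339.6 ± 512 against 100.0 ± 235 CPM on plate 2 and 334 ± 392 against 93.6 ± 220.2 CPM on plate 3, log2 ratios of 1.75 and 1.83. Detection was in 34 of 54 cells (63.0%, 48.7 to 75.7%) against 13 (24.1%, 13.5 to 37.6%) on plate 2. On plate 3 it was in 19 of 29 (65.5%, 45.7 to 82.1%) against 6 (20.7%, 7.99 to 39.7%). The gene lies on chromosome 12 at 80518277 to 80630972 on the plus strand, where exons of the opposite-strand genes 4933406B15Rik and Gm26777 share positions with it. No source used here says whether counting used strand.

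Sparc and Agt, both for secreted proteins, were higher at the Itih3 end. Sparc encodes a matrix protein that binds collagen and calcium. Sparc on plate 2 had lowest, median and highest values of 599, 3820.1 and 13970.0 CPM at the Itih3 end and 38.9, 1583 and 5434 CPM at the Aqp4-Car2 end. Sparc on plate 3 had 716, 3532 and 9386 CPM at the Itih3 end and 2.82, 2369.9 and 4594 CPM at the other end. It was detected in all Itih3-end cells, and the upper part of the Aqp4-Car2 end overlapped with them. Mean Sparc was 4225 ± 2615 against 1848 ± 1256 CPM on plate 2 and 3893 ± 2402 against 2259.6 ± 1305 CPM on plate 3, log2 ratios of 1.19 and 0.78. Agt encodes angiotensinogen, the precursor of angiotensin. Agt on plate 2 had lowest, median and highest values of 167, 4872 and 15679.7 CPM at the Itih3 end and 0, 2289 and 9820.1 CPM at the Aqp4-Car2 end. Agt on plate 3 had 781, 5271 and 9119.5 CPM at the Itih3 end and 0, 3125 and 7941 CPM at the other end. Nearly every cell held it at both ends, with overlapping ranges. Mean Agt was 5213 ± 3002 against 2674 ± 2063 CPM on plate 2 and 5144 ± 1971 against 3393 ± 2429 CPM on plate 3, log2 ratios of 0.96 and 0.60. Sparc and Agt are the 2 members past 1.5-fold of 4 non-telencephalic astrocyte markers that passed the filter (of 6), beside 2.52% of all genes. Slc6a11, a GABA transporter gene of the same list, had 0.37 on plate 2 and 0.17 on plate 3, and the glycine transporter gene Slc6a9 had -0.24 on plate 2 and -0.05 on plate 3. The telencephalic marker Mfge8, the 1 of 5 that passed, had -0.12 on plate 2 and -0.17 on plate 3. None of 8 caudal or 6 forebrain transcription factors passed the filter, so position could not be read from them. Among 12 secreted proteins that passed the filter, Sparc and Agt were past 1.5-fold, beside 2.52% of all genes. Of the 12, 6 were higher and 6 lower on both plates, beside 23.9% and 31.6% of all genes. Timp3, for a metalloproteinase inhibitor, had 0.80 on plate 2 and 0.29 on plate 3, and Htra1, for a secreted protease, had -0.78 on plate 2 and -0.47 on plate 3.

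Nnat, an imprinted gene for a small membrane protein of the endoplasmic reticulum, had a high level and a wide spread. Nnat on plate 2 had lowest, median and highest values of 0, 2139 and 9347 CPM at the Itih3 end and 0, 301 and 5217 CPM at the Aqp4-Car2 end. Nnat on plate 3 had 0, 586 and 3531 CPM at the Itih3 end and 0, 108 and 2960.3 CPM at the other end. Cells without a read occurred at both ends. Mean Nnat was 2385 ± 1909 against 673 ± 997 CPM on plate 2 and 992 ± 1057 against 488 ± 885 CPM on plate 3, log2 ratios of 1.82 and 1.02. At the Itih3 end the mean of plate 2 was thus above that of plate 3, and so was the ratio. Igsf1, an X-linked gene for an immunoglobulin-domain membrane protein, had means of 1638 ± 1761 against 735 ± 1064 CPM and 1447 ± 1258 against 924 ± 965 CPM, log2 ratios of 1.16 on plate 2 and 0.65 on plate 3. It lies outside the 30 named genes and was chosen after its values were seen. Nnat lies on chromosome 2 at 157560078 to 157562522 on the plus strand and Sparc on chromosome 11 at 55394500 to 55423183 on the minus strand.

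Among the other named genes of the Itih3 end, Cd9, a tetraspanin gene, had log2 ratios of 1.23 on plate 2 and 1.05 on plate 3 and was detected in 28 and 13 of 54 cells on plate 2 and in 15 and 10 of 29 on plate 3. Gabrg1, a GABA-A receptor subunit gene, had 1.07 on plate 2 and 0.85 on plate 3, with means of 621 ± 588 against 295 ± 355 and 453 ± 483 against 251 ± 397 CPM. The glutamate receptor subunit gene Gria1, named after its values were seen, had 0.61 on plate 2 and 1.26 on plate 3. Folh1, whose enzyme cleaves N-acetylaspartylglutamate, had 0.93 on plate 2 and 0.79 on plate 3. The phosphate transporter gene Slc20a2 had 0.96 on plate 2 and 1.13 on plate 3, and the cystine transporter gene Slc7a11, also named after its values were seen, had 0.73 on plate 2 and 0.79 on plate 3.

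Abhd12, a lysophospholipase gene, had 1.27 on plate 2 and 1.00 on plate 3 on the log2 scale, with medians of 579 against 183 and 326 against 99.8 CPM. Tmem55b, for a lysosomal membrane protein, had 1.11 on plate 2 and 0.85 on plate 3, and Arf4, for a small GTPase of the Golgi, 0.86 on plate 2 and 1.12 on plate 3. The splicing regulator gene Tra2a had 1.08 on plate 2 and 1.15 on plate 3. Its median was 0 at the Itih3 end of both plates. Ttll3, for a tubulin-modifying enzyme, had 0.76 on plate 2 and 1.07 on plate 3. Cnp, a myelin enzyme gene of the oligodendrocyte list, had 0.68 on plate 2 and 1.32 on plate 3, with means of 643 against 401 and 547 against 218 CPM. The summed level of the 10 oligodendrocyte markers was 3.99 to 4075 against 0 to 3884 CPM on plate 2 and 0 to 2620 against 0 to 2574 CPM on plate 3. Cnp is part of that sum. The myelin gene Mog was detected in 0 cells of either end, a count that allows up to 3.

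At the Aqp4-Car2 end, Hsd11b1 had the highest mean of the named genes. Its enzyme makes active glucocorticoid from an inactive form. Hsd11b1 on plate 2 had lowest, median and highest values of 0, 39.1 and 1824 CPM at the Itih3 end and 0, 862 and 5051 CPM at the Aqp4-Car2 end. Hsd11b1 on plate 3 had 0, 205 and 2362 CPM at the Itih3 end and 0, 509 and 3512 CPM at the other end. The median was higher at the Aqp4-Car2 end on both plates, with cells of 0 CPM at both ends. Mean Hsd11b1 was 327 ± 488 against 1161 ± 1148 CPM on plate 2 and 414 ± 569 against 770.4 ± 855 CPM on plate 3, log2 ratios of -1.83 and -0.90. Of 3 genes of glucocorticoid activation and response that passed the filter, it alone was past 1.5-fold on both plates, beside 3.38% of all genes. The receptor gene Nr3c1 had -0.60 on plate 2 and 0.22 on plate 3, and Tsc22d3, which glucocorticoid induces, had -0.01 on plate 2 and 0.11 on plate 3. Without the cells that held 3 markers of another type, its log2 ratios were -1.04 and -0.37, and it no longer passed on plate 3. It lies on chromosome 1 at 193221634 to 193264075 on the minus strand.

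Plcb1, Pkd2 and Tmem38a were other named genes of this end. Plcb1 encodes a phospholipase C that receptors activate through Gq proteins. Plcb1 on plate 2 had lowest, median and highest values of 0, 4.71 and 938 CPM at the Itih3 end and 0, 227 and 1795 CPM at the Aqp4-Car2 end. Plcb1 on plate 3 had 0, 61.0 and 952 CPM at the Itih3 end and 0, 319 and 1890.3 CPM at the other end. The ranges overlapped, and cells without a read were more frequent at the Itih3 end, where Plcb1 was detected in 24 against 45 of 54 cells and 19 against 25 of 29. Mean Plcb1 was 131 ± 256 against 341 ± 397 CPM on plate 2 and 175 ± 258 against 441 ± 531 CPM on plate 3, log2 ratios of -1.37 and -1.33. Pkd2, for the cation channel polycystin-2, had the largest smaller ratio, -1.57 on plate 2 and -1.34 on plate 3. It rests on few cells, since it was detected in 12 and 16 of 54 cells on plate 2 and in 5 and 10 of 29 on plate 3 and its median was 0 in every end of both plates. Tmem38a, for a potassium channel of the endoplasmic reticulum, had -1.18 on plate 2 and -1.06 on plate 3 and was detected in 20 and 33 of 54 cells on plate 2 and in 10 and 14 of 29 on plate 3. Plcb1 passed the filter and 1.5-fold in 18 alternatives, Pkd2 in 12 and Tmem38a in 13.

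Gpr37, Tnfrsf19 and Slc15a2 encode surface proteins. Gpr37, an orphan receptor gene of glia, had lowest, median and highest values of 0, 1.54 and 1015 CPM at the Itih3 end against 0, 292 and 2365 CPM on plate 2. The plate 3 values were 0, 87.7 and 801 CPM against 0, 428 and 1851 CPM. Both ends overlapped, and the highest cell lay at the Aqp4-Car2 end on both plates. Mean Gpr37 was 199 ± 298 against 524 ± 607 CPM on plate 2 and 249 ± 288 against 475 ± 503 CPM on plate 3, log2 ratios of -1.39 and -0.93. Tnfrsf19, a receptor gene of the tumour necrosis factor family, had -1.15 on plate 2 and -1.15 on plate 3 and was detected in 13 and 26 of 54 cells on plate 2 and in 8 and 9 of 29 on plate 3. Slc15a2, the transporter PEPT2 for short peptides, had -0.98 on plate 2 and -1.27 on plate 3, with means of 155 ± 267 against 308 ± 456 and 166 ± 282 against 403 ± 487 CPM. Wide spreads between cells went with these means.

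The named enzyme genes of this end included Sod3, Tst and Mthfd1. Sod3 encodes the secreted superoxide dismutase. Sod3 on plate 2 had lowest, median and highest values of 0, 0 and 952 CPM at the Itih3 end and 0, 198 and 1795 CPM at the Aqp4-Car2 end. Sod3 on plate 3 had 0, 0 and 752 CPM at the Itih3 end and 0, 201 and 1182 CPM at the other end. The median was 0 at the Itih3 end of both plates, and the ranges overlapped. Mean Sod3 was 155 ± 235 against 341 ± 389 CPM on plate 2 and 123 ± 202 against 298 ± 343 CPM on plate 3, log2 ratios of -1.14 and -1.27. Tst encodes rhodanese, a mitochondrial enzyme of sulfide and cyanide metabolism. Tst on plate 2 had lowest, median and highest values of 0, 129 and 1179 CPM at the Itih3 end and 0, 499.6 and 1723 CPM at the Aqp4-Car2 end. Tst on plate 3 had 0, 212 and 719 CPM at the Itih3 end and 0, 455 and 1407 CPM at the other end. Most cells of the Aqp4-Car2 end held it, 49 of 54 and 25 of 29, against 33 and 20 at the Itih3 end. Mean Tst was 200.3 ± 249.6 against 506 ± 381 CPM on plate 2 and 219 ± 206 against 444 ± 383 CPM on plate 3, log2 ratios of -1.33 and -1.01. Mthfd1, an enzyme gene of folate metabolism, had -1.07 on plate 2 and -1.19 on plate 3. On plate 3 it was detected in 9 and 8 of 29 cells, more often at the end with the lower mean. Sod2, the mitochondrial superoxide dismutase gene, named after its values were seen, had -1.18 on plate 2 and -0.64 on plate 3.

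Tagln3, a calponin family gene, had lowest, median and highest values of 0, 151 and 1523 CPM at the Itih3 end against 0, 327 and 1997 CPM on plate 2 and 0, 8.51 and 798 CPM against 0, 271 and 1770.2 CPM on plate 3. The ends overlapped, with both medians higher at the Aqp4-Car2 end. Mean Tagln3 was 255 ± 310.1 against 469 ± 491 CPM on plate 2 and 125 ± 192 against 364 ± 408 CPM on plate 3, log2 ratios of -0.88 and -1.53. Rock1, for a kinase of the actin cytoskeleton, had -1.18 on plate 2 and -0.99 on plate 3, and on plate 3 its median was higher at the Itih3 end (8.39 against 2.97 CPM). It passed in 9 of 18 alternatives, the fewest of the 30 named genes. Dnm1l, for the mitochondrial fission GTPase, had -0.85 on plate 2 and -1.05 on plate 3, Mrfap1 -1.07 on plate 2 and -0.86 on plate 3, and 9030624J02Rik (now Vps35l, for a subunit of an endosomal recycling complex) -1.23 on plate 2 and -1.12 on plate 3. Id4, for an inhibitor of basic helix-loop-helix factors, had -0.69 on plate 2 and -1.25 on plate 3. It was the 1 of 9 glial transcription factors past 1.5-fold on both plates, beside 3.38% of all genes toward the Aqp4-Car2 end. Sox9, of the same list, had -0.30 on plate 2 and 0.27 on plate 3.

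**Figure D3:**
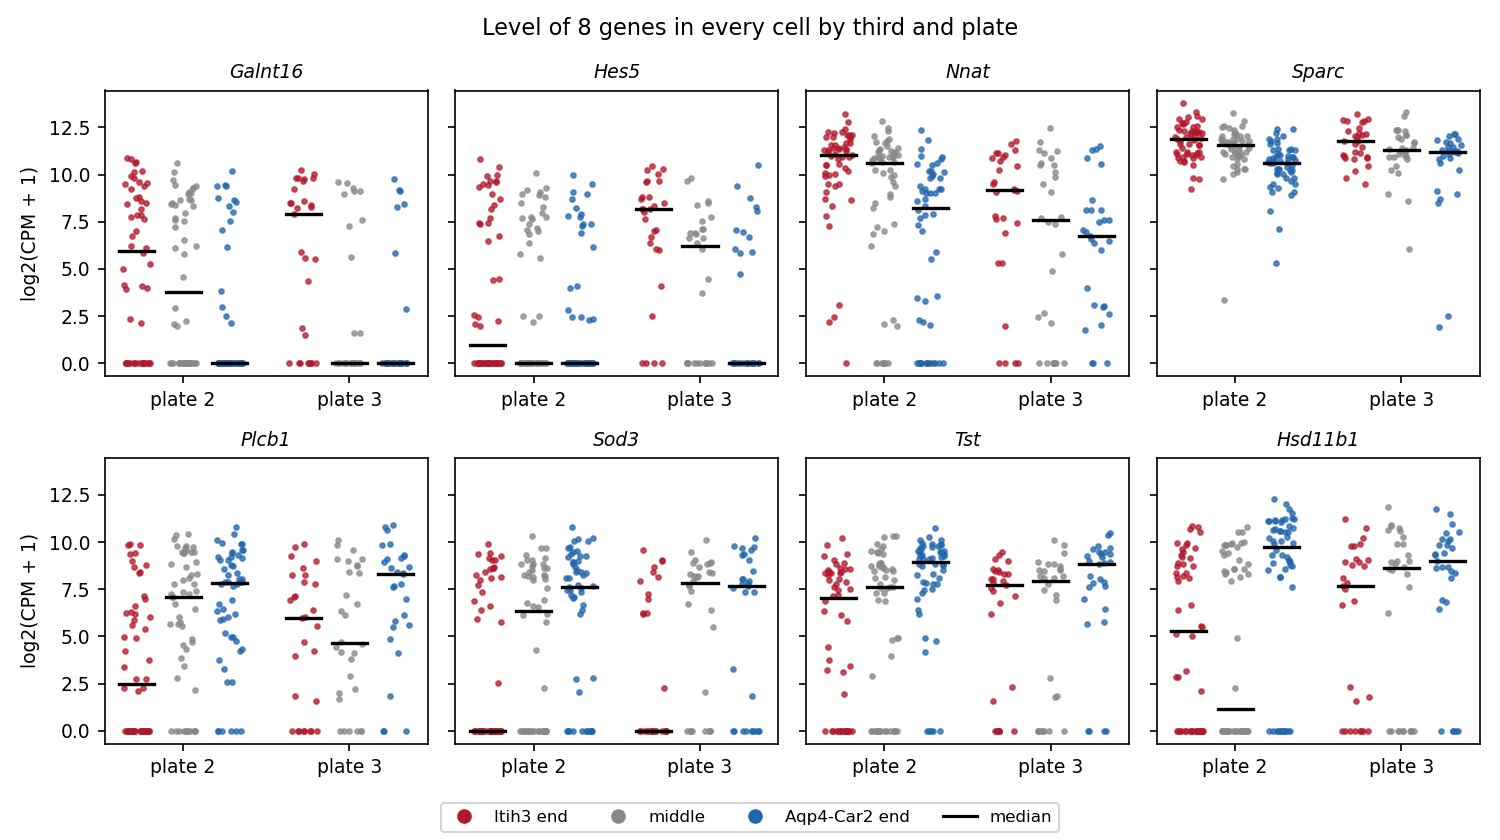
Level of 8 named genes in each cell (log2(CPM + 1), points) at the ends and in the middle of each plate, with the median as a black line. Galnt16, Hes5, Nnat and Sparc have higher medians at the Itih3 end on both plates, the genes of the lower row have higher medians at the Aqp4-Car2 end, and the ends overlap in every panel.

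Across the 30 named genes the mean log2 ratio of the plates kept its sign in the 18 alternatives, which varied the filter, scaling, depth, borders, score and cells. Alternatives that varied the filter alone left every ratio as it was, so no sign could change in them. The 30 genes had also been chosen by their ratios in these same cells, so the kept signs are a description only. Of 1080 values of single plates, 3 had the other sign, all on plate 3. Rock1 had 0.08 as a difference of mean log2(CPM + 1) and 0.26 with a score of Aqp4 and Car2 alone, and Tmem38a had 0.02 with a score of Itih3 and Slc1a3 alone. On both plates, 8 genes passed the filter and 1.5-fold in all 18, namely Galnt16, Hes5, Nnat and Sparc at the Itih3 end and Plcb1, Sod3, Tagln3 and Tst at the Aqp4-Car2 end. All 30 passed when the score was replaced by its residual on total reads and genes detected. Thinned to 100000 reads per cell, all 30 were past 1.5-fold on both plates, although 4 of them (Mthfd1, Pkd2, Tra2a and Ttll3) then failed the filter. Without the cells that held 3 markers of another type, 25 were past 1.5-fold on both plates, of which 9 failed the filter, and Tra2a, Arf4, Hsd11b1, Mrfap1 and Dnm1l were not. When each plate was split into 2 equal parts, 17 of the 30 were past 1.5-fold, and with the score without Car2 19 were. The ranges of the ends overlapped for each named gene on each plate.

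**Figure D4:**
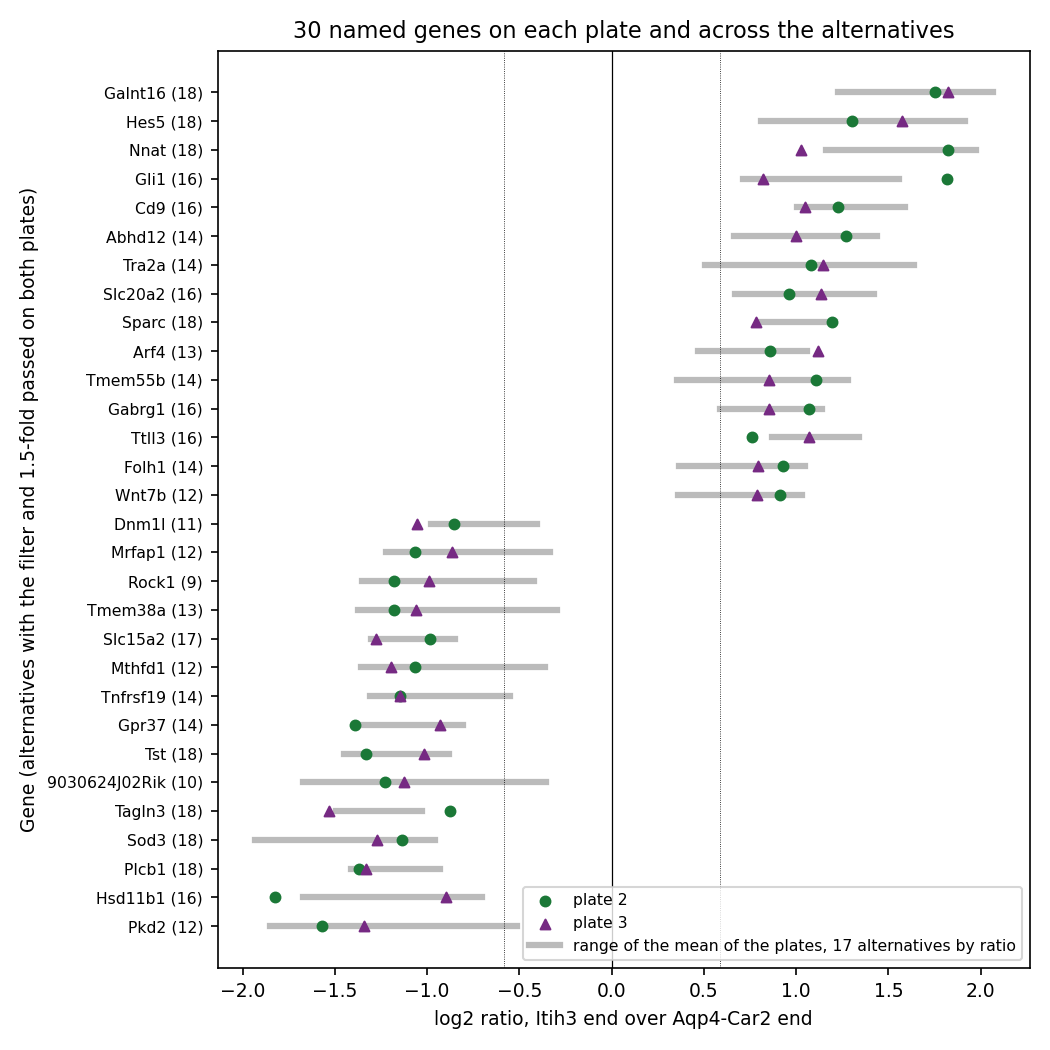
log2 ratio of each of the 30 named genes on plate 2 (circles) and plate 3 (triangles), with grey bars for the range of the mean of the plates over 17 alternatives that use ratios, and in brackets the number of 18 alternatives in which the gene passed the filter and 1.5-fold on both plates. No bar crosses 0, and 8 genes have 18 in brackets.

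Scores from pairs of the score genes reuse values that chose the cells and the named genes, so their values are a description only. With a score of Itih3 and Slc1a3 alone, 11 of the 15 Itih3-end genes and 8 of the 15 Aqp4-Car2-end genes passed on both plates, and with Aqp4 and Car2 alone 10 and 9 did. Both scores gave 7 and 5 of them. These scores were tried after the data had been seen. Hes5 had log2 ratios of 1.68 and 1.89 with Itih3 and Slc1a3, and 0.69 and 0.94 with Aqp4 and Car2. Slc20a2 had 1.38 and 1.47 against 0.39 and 0.94. Tnfrsf19 had -0.44 and -0.67 with the first pair and -1.12 and -1.50 with the second. Sod3 passed with each pair, with -1.37 and -1.18 against -0.98 and -1.18.

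A choice on plate 2 alone shows how far its largest differences recurred on plate 3. Of the 15 genes with the largest ratio toward the Itih3 end on plate 2, 11 had the same direction on plate 3 and 8 were past 1.5-fold there. Among all 1508 genes 48.4% were in that direction on plate 3 and 13.9% past the fold. Of the 15 toward the Aqp4-Car2 end, 11 kept direction and 7 were past the fold, beside 51.6% and 14.7% of all genes. The median log2 ratio was 1.32 on plate 2 and 0.59 on plate 3 for the first group, and -1.57 and -0.47 for the second. Among those that did not recur were Sf3a1 with 1.58 on plate 2 and -0.49 on plate 3 and Btbd3 with -1.95 on plate 2 and 0.14 on plate 3.

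Nuclear genes of the respiratory chain and ATP synthase were mostly lower at the Itih3 end by small amounts. Of 88 listed genes 49 passed the filter. Of these, 32 (65.3%) were lower and 4 (8.16%) higher at the Itih3 end on both plates, beside 31.6% and 23.9% of all genes that passed. Past 1.5-fold toward the Aqp4-Car2 end on both plates were 3 of 49, beside 3.38% of all genes. The median log2 ratio was -0.41 on plate 2 and -0.11 on plate 3, beside -0.08 and -0.02 over all genes. A lower median was not particular to this list. By the mean of the plates it was -0.29, beside -0.37 for 6 cholesterol synthesis genes and -0.31 for 5 ribosomal protein genes. Other lists went the other way, among them lipid export with 0.34 (3 genes). By complex, lower on both plates were 14 of 25 genes of complex I, 4 of 6 of complex III, 7 of 8 of complex IV and 7 of 10 of ATP synthase. Past the fold were the complex I gene Ndufs3 with -1.25 on plate 2 and -0.74 on plate 3, the complex III gene Uqcrh with -0.81 on plate 2 and -1.04 on plate 3 and the ATP synthase gene Atp5c1 with -0.78 on plate 2 and -0.91 on plate 3. The 49 genes include none of complex II. The complex II gene Sdhc, outside the list and named after its values were seen, had -1.84 on plate 2 and -0.62 on plate 3. Mean Atp5c1 was 299 ± 384 against 515 ± 432 CPM on plate 2 and 265 ± 337 against 499.5 ± 481 CPM on plate 3. The summed level of the 88 genes had lowest, median and highest cells of 4267, 9576 and 14524 CPM against 5547, 11941 and 32802 CPM on plate 2. On plate 3 it had 4831, 10579 and 14746 against 6413, 11414 and 18322 CPM. The sums overlapped widely, and the highest cell lay at the Aqp4-Car2 end on both plates. The middle cells of plate 3 had a median sum of 9894 CPM, below both ends. On plate 2, genes detected per cell were also lower at the Itih3 end. With the score's residual on reads and genes detected the median of the list over both plates was -0.25, beside -0.29 without it, and with Aqp4 and Car2 alone it was -0.14.

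The 3 metallothionein genes, for small proteins that bind zinc and copper, were all lower at the Itih3 end on both plates, beside 31.6% of all genes. Mt3, a form made mainly in the brain, had lowest, median and highest values of 31.4, 299 and 1111 CPM against 92.6, 409.7 and 2603 CPM on plate 2 and 201, 384 and 767 CPM against 149, 634 and 1539 CPM on plate 3. Every cell of both ends held Mt3, and the ranges overlapped. Mean Mt3 was 342 ± 227 against 558 ± 419.5 CPM on plate 2 and 401 ± 157 against 651 ± 373 CPM on plate 3, log2 ratios of -0.70 and -0.70. It alone of the 3 was past 1.5-fold on both plates, beside 3.38% of all genes toward the Aqp4-Car2 end. Mt1 had -0.74 on plate 2 and -0.45 on plate 3, and Mt2 had -0.25 on plate 2 and -0.52 on plate 3. Of 10 glycolysis and glycogen genes none was past 1.5-fold on both plates, beside 2.52% and 3.38% of all genes toward the Itih3 and the Aqp4-Car2 end. Of the 10, 6 were lower and 1 higher on both, beside 31.6% and 23.9% of all genes. The pyruvate kinase gene Pkm had -0.55 on plate 2 and -0.32 on plate 3, and Ldha, for a lactate dehydrogenase subunit, had -1.11 on plate 2 and -0.11 on plate 3.

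Lists of genes that work beside the products of the score genes held no gene past the fold on both plates. That was so for 6 potassium, sodium and bicarbonate transport genes, 5 endfoot and dystroglycan genes and 7 glutamate and GABA uptake genes that passed the filter. With 2.52% and 3.38% of all genes past it toward the ends, a count of 0 in lists of this size is near the background. The potassium channel gene Kcnj10, whose product shares the endfoot with the Aqp4 channel, had 0.21 on plate 2 and 0.02 on plate 3, the bicarbonate transporter gene Slc4a4 0.20 on plate 2 and 0.09 on plate 3 and the dystrophin gene Dmd -0.98 on plate 2 and -0.48 on plate 3. Slc1a2, for the glutamate transporter GLT-1, had -0.30 on plate 2 and -0.37 on plate 3, and Glul, for glutamine synthetase, had -0.46 on plate 2 and -0.30 on plate 3. Of the hyaluronan matrix genes that passed, Ncan had 0.53 on plate 2 and -0.06 on plate 3, Bcan -0.22 on plate 2 and -0.14 on plate 3 and Cspg5 -0.71 on plate 2 and -0.48 on plate 3, with 0 past the fold on both plates. None of 11 other carbonic anhydrase genes or 3 other aquaporins passed the filter. With cells as the only units, values under 1.5-fold show no equality between the ends.

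**Figure D5:**
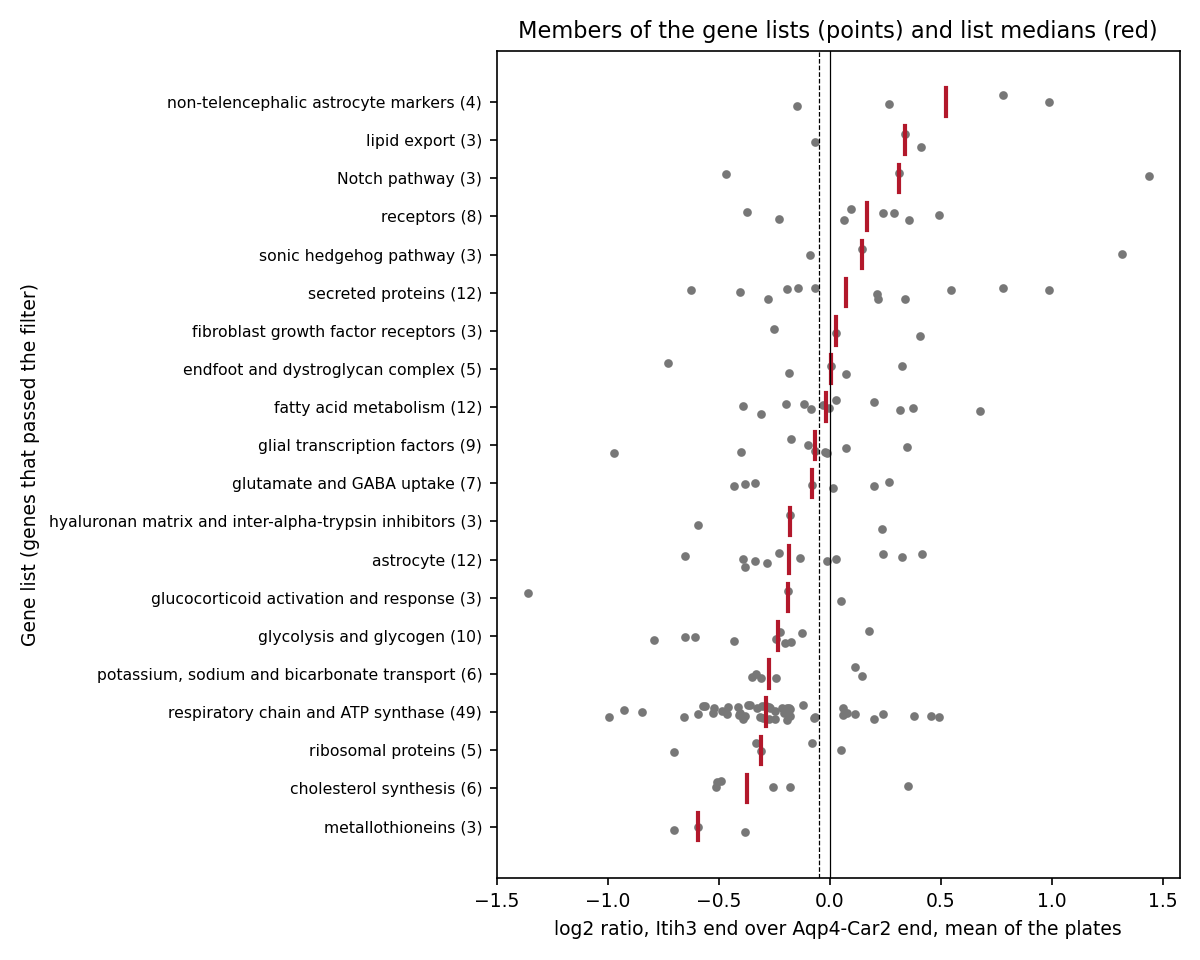
Gene lists with at least 3 members that passed the filter: each point is a gene's log2 ratio (Itih3 end over Aqp4-Car2 end, mean of the plates), red bars are list medians, and the dashed line is the median of all 1508 genes. The respiratory chain list (49 genes) has most points left of 0, and the 3 metallothioneins have the lowest median.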

How the data were processed

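Smart-seq2 libraries of 250 single cells were analysed. The deposited table holds raw read counts per gene, whole numbers that were not normalized, as the file's own values show. The submitters' processing notes name STAR 2.4.2a and the build mm10. Not given in the sources used here are the counter, its strandedness, the gene annotation, the sort gate and how these cells were picked. The authors' second, scaled table was not used. All cells were kept, and no doublet caller was run, since cells were sorted into single wells.

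Counts were scaled to CPM, and the score was computed within plates. Ratios are log2 of (mean CPM + 1) at the Itih3 end over the Aqp4-Car2 end, and a gene was called at 1.5-fold in the same direction on both plates. The 4 score genes were left out. Named genes are the 15 per end with the largest smaller absolute log2 ratio of the plates, and members of 41 lists (458 genes, all with a row). Where the text names another gene, it says so. The members and lists were chosen with earlier results of these data known. No test was made, because cells are not replicates and the labels name no animal. Intervals are for a share of cells, with the cells taken as independent draws. They cover the sampling of cells only and hold no spread between animals, which the labels do not name. PCR copies of reads are not independent molecules.

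Of 19 alternatives 17 were planned, and scores of Itih3 with Slc1a3 and of Aqp4 with Car2 were added after seeing the data. Scripts used Python 3.11.15, numpy 2.4.6, pandas 2.3.3 and scipy 1.17.1, and edgeR 4.0.16 in R 4.3.3 for the TMMwsp normalization factors of 1 alternative. They were tested on simulated data. Gene positions come from GENCODE M21 (GRCm38) and promoter windows from RefSeq (GRCm38.p6). Of the 30 named genes 30 had a position, and 14 share exon positions with another annotated gene, so their reads may be split or joined.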

Additional observations from a re-analysis of the deposited data

How the results depend on the processing

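The counts of genes past the fold, 38 at the Itih3 end and 51 at the Aqp4-Car2 end, moved by over 1.5 times as follows. They were 99 and 156 with the difference of mean log2(CPM + 1), 1098 and 1228 with no filter beyond 1 read on each plate (2080 in opposite directions), and 336 and 385 with no rule on the share held by 1 cell (608 opposite). They were 16 and 29 when each plate was split into 2 equal parts and 5 and 8 at 2-fold. The Itih3-end count alone moved past that factor to 25 with the score without Slc1a3, 21 without the 48 cells that held 3 markers of another cell type, and 21 with the score of Aqp4 and Car2 alone. Without those 48 cells, 13 of the 38 and 18 of the 51 genes remained, with 1108 genes that passed the filter in place of 1508. The cause was not tested, beyond the fewer or more genes and cells that these settings hold. The share of genes past the fold on both plates that had the same direction ran from 52.8% (no filter) to 75.6% (score without Car2).

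Of 540 values of named genes under alternatives, each the mean of both plates, 493 moved by less than the spread between the plates, 47 moved by more and 0 reversed. That spread, pooled over 1508 genes, was 0.521 on the log2 scale, beside 0.585 for 1.5-fold, so a move under it can be large. The 493 include alternatives that varied the filter alone, where the ratios could not move. Of the 1080 single plate values behind the 540 means, 3 had the other sign, for Rock1 and Tmem38a on plate 3. Of 468 list medians, 437 moved by less and 31 by more than the spread of list medians between the plates, 0.220. Scaling by TMMwsp moved the median of all genes from -0.05 to -0.01. No paired analysis was possible because all cells form 1 group and carry no shared replicate numbers. For genes of low level many cells had no read, and their means rest on few cells. The part of depth in this was not tested.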
